A study of Rattus norvegicus with 6 samples.

Results

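Expression of 10 genes was followed from the bulk RNA-seq of rat endometrial epithelial organoids (rEEOs) and rat bone marrow mesenchymal stem cells (rBMSCs). They were the rows of the expression table named Pdgfa, Pdgfb, Pdgfrb, Angpt1, Angpt2, Vegfb, Figf, Hgf, Ptn and Mdk, 10 of the 13728 genes analysed, taken by symbol. By gene ID the row named Figf is Vegfd. Libraries were made from 3 samples of each. The rEEOs had been grown in Matrigel from uterine glandular fragments of 5-week-old female Sprague-Dawley rats, at low passage, with EGF, FGF10, noggin, A83-01, Y27632, Wnt3a and R-Spondin-1 among the additives. The rBMSCs were purchased cells labeled with red fluorescent protein and were grown in DMEM/F12 with serum. No PDGF, angiopoietin, VEGF or HGF is named among the additives of either medium. The growth factors that the serum of rBMSCs and the Matrigel of rEEOs may carry are not listed in the sources used here. The groups thus differ in tissue of origin, medium and matrix at once, and these cannot be told apart. The sources used here do not say whether the 3 libraries of a cell type came from separate animals or cultures, so the p-values measure the spread between these libraries, which may be technical.

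Platelet-derived growth factors (PDGF) are dimeric ligands that act on the receptor tyrosine kinases PDGFRα and PDGFRβ of mesenchymal cells, and PDGF-B from vessel walls recruits pericytes through PDGFRβ. Angiopoietins act on the endothelial receptor TIE2, with ANGPT1 stabilizing vessels and ANGPT2 loosening them. The VEGF family acts on endothelial VEGF receptors, and hepatocyte growth factor (HGF) is a mesenchymal product that signals to epithelial cells through MET after it has been cleaved to its active form. Pleiotrophin (PTN) and midkine (MDK) are heparin-binding growth factors that share the receptor PTPRZ1. The comparison asks which of the cell types, both of interest for repair of the endometrium, transcribes which of these factors.

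The expected counts, read numbers that RSEM assigns to genes and that need not be whole, summed to between 10457958 and 15421501 reads per library. Levels are given as TPM, the length-corrected share of a gene in the transcripts of a library. Epithelial markers summed to between 5316 and 5940 TPM in rEEOs and to at most 3.57 TPM in rBMSCs. Mesenchymal markers summed to between 42209 and 44601 TPM in rBMSCs and to between 172.0 and 300.3 TPM in rEEOs, of which Vim took most, and Thy1, Lum, Dcn and Fap had no count in any rEEOs library. The 8 pericyte and smooth muscle markers summed to between 5911 and 6663 TPM in rBMSCs and to at most 8.96 TPM in rEEOs, in which Des, Abcc9 and Kcnj8 had no count. Of 6 endothelial markers, Pecam1, Cdh5, Tie1 and Vwf lay at 0.16 TPM or below in all 6 libraries, and Erg took most of the sum of 9.39 to 10.98 TPM in rBMSCs. Macrophage and blood cell markers summed to 32.8, 134.2 and 106.6 TPM in rEEOs replicates 1, 2 and 3, of which Cd68 took nearly all. They summed to at most 1.07 TPM in rBMSCs. Aif1 had 0.48, 1.25 and 0.23 TPM and Adgre1 had 0.48, 0 and 0.11 TPM in rEEOs, and neither had a count in rBMSCs. Laptm5 went the other way, with 1, 5 and 4 counts in rBMSCs and 0 in all rEEOs libraries. Csf1r had at most 2 counts in any library, and Spi1 had 0, 2 and 0 counts in rEEOs and none in rBMSCs. Fcer1g had 1, 1 and 0 counts in rBMSCs and 0, 1 and 4 in rEEOs. Of 12 mesenchymal markers, 11 were tested and 10 were called lower in rEEOs. In rBMSCs, Nt5e (CD73) was at 0.69 to 1.23 TPM and did not pass (edgeR adjusted p = 0.0507), and Dcn was at 0.43 to 0.67 TPM and was not tested. All 10 epithelial markers were called higher in rEEOs. The rEEOs replicates differed more from each other than the rBMSCs replicates, with a median SD of log2(CPM + 1) of 0.34 compared to 0.088 over the genes tested, where CPM is the count relative to the library size as scaled by the TMM method.

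The Pdgfa and Pdgfb ligand genes and the Vegfb and Figf ligand genes are shown first, since each pair joins a ligand read in both cell types with a ligand read almost wholly in 1 of them. Of the 10 genes, 6 matched a RefSeq promoter window. The 250 bases before the start site are given 5′ to 3′ on the gene's strand in the GRCr8 assembly, which is not the Rnor_6.0 build named in the submitters' processing notes, and no coordinates are taken from the expression table. Capitals mark a GC box (GGGCGG, on either strand) or a TATA box (TATAAA, on either strand). Pdgfa lies at chr12:20759116-20759365 on the plus strand, and the others lie on the minus strand, Pdgfb at chr7:113438344-113438593, Vegfb at chr1:213607153-213607402 and Figf at chrX:33739893-33740142.
Pdgfa: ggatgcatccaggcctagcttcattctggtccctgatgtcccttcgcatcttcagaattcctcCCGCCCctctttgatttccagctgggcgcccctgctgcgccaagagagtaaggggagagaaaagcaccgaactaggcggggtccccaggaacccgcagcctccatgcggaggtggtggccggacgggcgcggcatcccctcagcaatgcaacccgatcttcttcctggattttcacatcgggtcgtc
Pdgfb: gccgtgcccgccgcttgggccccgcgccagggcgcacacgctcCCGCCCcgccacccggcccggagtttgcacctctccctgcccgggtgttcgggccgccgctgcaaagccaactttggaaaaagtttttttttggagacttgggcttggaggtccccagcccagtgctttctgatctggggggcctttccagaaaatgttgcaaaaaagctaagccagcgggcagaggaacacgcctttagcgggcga
Vegfb: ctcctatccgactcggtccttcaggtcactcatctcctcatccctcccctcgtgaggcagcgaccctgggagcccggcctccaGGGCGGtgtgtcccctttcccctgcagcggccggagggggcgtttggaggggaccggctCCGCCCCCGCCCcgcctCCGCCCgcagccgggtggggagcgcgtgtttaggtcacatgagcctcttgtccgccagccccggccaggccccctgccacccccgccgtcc
Figf: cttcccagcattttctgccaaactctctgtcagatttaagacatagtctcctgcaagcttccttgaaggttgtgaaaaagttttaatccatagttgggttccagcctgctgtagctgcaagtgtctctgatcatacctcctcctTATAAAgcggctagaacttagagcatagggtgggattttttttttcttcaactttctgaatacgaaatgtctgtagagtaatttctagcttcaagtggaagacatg
The Vegfb window held 4 GC boxes and was 73.2% G and C, a share that 4.89% of the 33469 RefSeq windows reach. The Figf window held no GC box, was 40.8% G and C, and had a TATA box that begins 106 bases before the start site. Pdgfa and Pdgfb each held 1 GC box, at 60.8% and 63.6% G and C. A GC box was found in 4 of the 6 windows matched, compared to 30.5% of all windows, and a TATA box in 1, compared to 12.9%. These matches describe letters and not bound sites, and no match says only that the letters are absent from the window.

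Angpt1, Vegfb, Figf, Hgf and the receptor gene Pdgfrb were higher in rBMSCs, and Pdgfb was higher in rEEOs. Of the 10 genes, 8 had at least 10 counts in at least 3 libraries and were tested. The test was the quasi-likelihood test of edgeR, with p-values adjusted by Benjamini-Hochberg over all 10607 genes tested, and a gene was called when its adjusted p lay below 0.05 and its log2 fold change (rEEOs minus rBMSCs, given with its standard error, SE) exceeded 2 in size. By that rule 1 gene was higher in rEEOs (Pdgfb) and 3 were lower (Pdgfrb, Figf and Hgf), while over all genes tested 16.3% were called higher and 13.3% lower. With the adjusted p alone, Angpt1 and Vegfb were lower as well, so 5 of 8 were lower and 1 higher, compared to 30.2% and 33.3% of all genes tested. These 5 also passed a log2 fold threshold of 1, as 21.6% of all genes tested did in that direction. Pdgfa and Ptn did not pass. Angpt2 and Mdk had too few counts to be tested. The values of a cell type are given below in the order of its replicates 1, 2 and 3. The scaled counts (CPM) of all rEEOs libraries lay below those of all rBMSCs libraries for 7 of the 8, a pattern that 35.9% of all genes tested show, and above them for Pdgfb, as for 36.9% of all genes tested. Since an exact permutation of 3 libraries against 3 gives no p below 0.1, the tests depend on the spread that edgeR shares across genes.

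**Figure D1:**
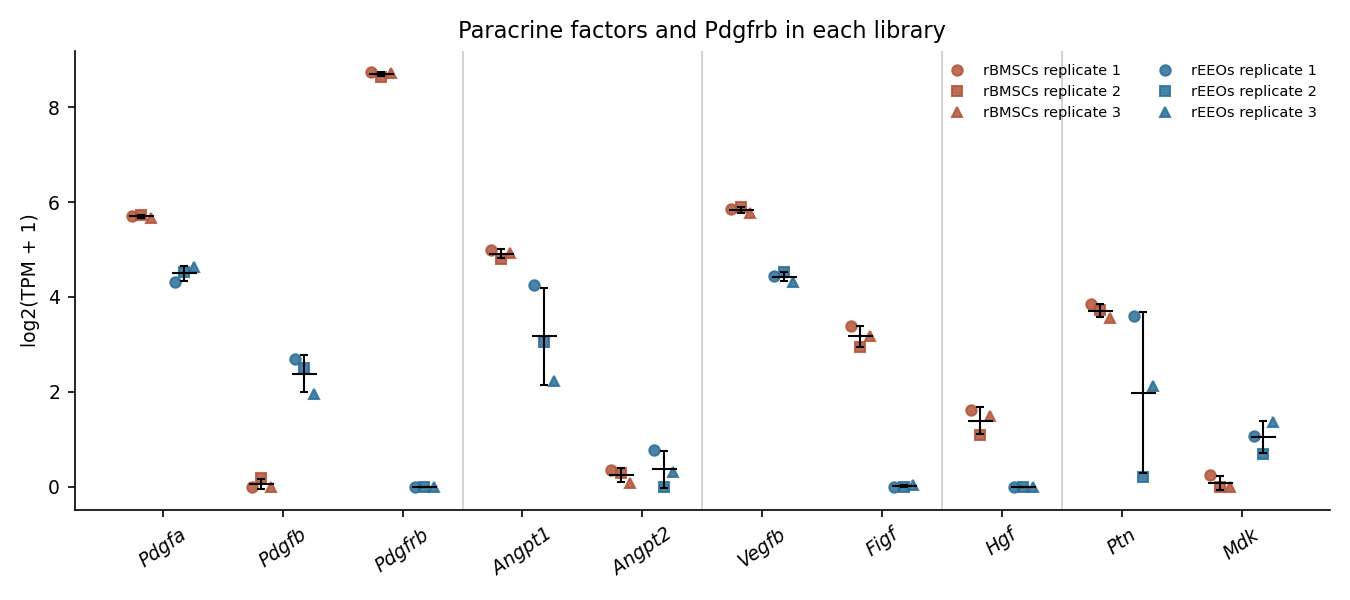
Level of each gene in each library as log2(TPM + 1), with circles, squares and triangles for replicates 1, 2 and 3, a bar for the mean and whiskers for the SD (n = 3). Pdgfrb, Figf and Hgf are at or near 0 in rEEOs, Pdgfb is at or near 0 in rBMSCs, and Ptn and Angpt1 are the genes whose rEEOs libraries lie farthest apart.

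Per transcript length, the order of levels differed between the cell types. In rBMSCs, Pdgfrb was the most abundant with 415 ± 14.6 TPM (SD, n = 3), followed by Vegfb with 56.3 ± 2.62 TPM, Pdgfa with 50.9 ± 1.12 TPM, Angpt1 with 29.1 ± 1.89 TPM, Ptn with 12.1 ± 1.27 TPM, Figf with 8.07 ± 1.35 TPM and Hgf with 1.66 ± 0.49 TPM. None of these neighbours overlapped between libraries. Angpt2, Mdk and Pdgfb followed at or below 0.28 TPM and could not be ordered at this depth. In rEEOs, Pdgfa with 21.7 ± 2.51 TPM and Vegfb with 20.5 ± 1.48 TPM led and overlapped. Angpt1, with 9.68 ± 7.50 TPM, Ptn, with 4.88 ± 5.64 TPM, and Pdgfb, with 4.33 ± 1.32 TPM, overlapped one another, and Mdk followed with 1.10 ± 0.48 TPM, inside the range of Ptn.

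Pdgfb was the PDGF ligand with the higher level in rEEOs. Pdgfb, whose product binds both PDGF receptors, had 97, 84 and 51 counts in rEEOs and 0, 2 and 0 counts in rBMSCs. These are 5.43, 4.70 and 2.86 TPM compared to 0, 0.13 and 0 TPM, and the groups do not overlap. Pooled over libraries, the scaled count of Pdgfb was 115.7 times higher in rEEOs, with a 95% exact interval of 31.7 to 961 that covers counting error only (edgeR adjusted p = 0.000488). The ratio rests on the 2 counts of rBMSCs replicate 2. Without that library rBMSCs had no count, and the fitted log2 fold change moved from 6.62 to 9.27 (edgeR adjusted p = 0.00179), a value that depends on the prior count and is no bound. Pdgfb was therefore a low but regularly read transcript of rEEOs, above between 40.7% and 48.2% of the genes analysed in those libraries.

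Pdgfa, whose product acts mainly through PDGFRα, was read in both cell types. It had 51.0, 52.0 and 49.8 TPM in rBMSCs and 18.97, 22.07 and 23.95 TPM in rEEOs, and every rEEOs library lay below every rBMSCs library. By counts the distance was smaller. The expected counts were 735, 780 and 673 in rBMSCs and 416, 471 and 515 in rEEOs, and the log2 fold change was -0.59 (SE 0.22, edgeR adjusted p = 0.0546), which does not pass. On log2(TPM + 1) the difference was -1.20 (adjusted p = 0.000391, limma). Without rEEOs replicate 1 the log2 fold change was -0.36 (edgeR adjusted p = 0.0124). The fit on log2(TPM + 1) also moved the median over all genes by -0.30 from the main test. Scaling therefore enters that value as well as transcript length. Whether Pdgfa passes the adjusted p thus depends on rEEOs replicate 1, on the test and scaling, and on whether transcript length enters.

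The reads of Pdgfa in rEEOs were assigned to longer transcripts. The ratio of counts to TPM gives the effective length that RSEM averages over the isoforms of a gene, and it was set relative to the other genes of the same library and to the mean of rBMSCs. For Pdgfa it was 1.01, 0.993 and 0.993 in rBMSCs and 1.298, 1.264 and 1.276 in rEEOs, a ratio of 1.28 between the cell types. Of 7712 genes with at least 1 TPM in all libraries, 0.661% shifted as far in either direction, and the 5th and 95th percentiles of the ratio were 0.965 and 1.08. For Angpt1 the relative length was 0.969 in rEEOs replicate 1, just below the 0.994 to 1.01 of rBMSCs, but 1.29 and 1.39 in replicates 2 and 3. Vegfb stayed between 0.997 and 1.03 in all 6 libraries. With this length as an offset in edgeR, an alternative added once the data had been seen, Pdgfa had a log2 fold change of -0.94 (SE 0.23, edgeR adjusted p = 0.0126) and Angpt1 one of -1.45 (edgeR adjusted p = 0.0243). Isoform values were not analysed here, so which transcripts were read is not known.

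**Figure D2:**
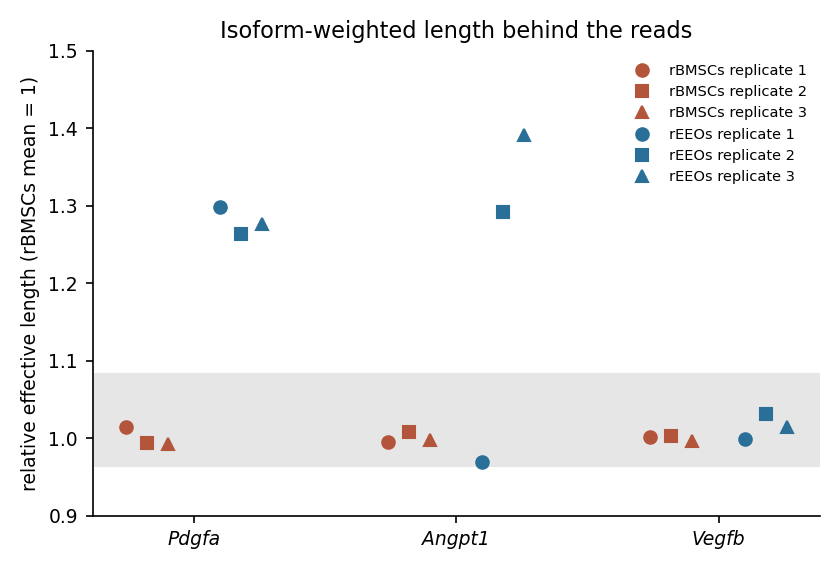
Effective length averaged over isoforms, relative to the mean of rBMSCs, for the 3 genes with at least 1 TPM in every library, with circles, squares and triangles for replicates 1, 2 and 3. The grey band spans the 5th to 95th percentile of the rEEOs to rBMSCs ratio over 7712 genes, 0.965 to 1.08. All 3 rEEOs libraries of Pdgfa and 2 of Angpt1 lie above it.

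Summed over Pdgfa, Pdgfb, Pdgfc and Pdgfd, PDGF ligand transcripts reached 95.8 ± 2.46 TPM (SD, n = 3) in rBMSCs and 30.4 ± 1.39 TPM (SD, n = 3) in rEEOs. Pdgfa was the largest part of both. It made up between 52.8% and 53.7% of the sum in rBMSCs and between 59.6% and 79.1% in rEEOs. Pdgfb made up between 9.45% and 17.1% in rEEOs but at most 0.132% in rBMSCs. The remainder was Pdgfc and Pdgfd, ligands that need proteolytic removal of a CUB domain. Pdgfc fell by 3.25 on the log2 scale (SE 0.42, edgeR adjusted p = 0.000774) and Pdgfd by 2.96 (SE 0.43, edgeR adjusted p = 0.00133) in rEEOs compared to rBMSCs. Plat, the protease known to activate PDGF-C, had 177 ± 91.0 TPM in rEEOs and 29.9 ± 1.61 TPM in rBMSCs, and Plau, known to activate PDGF-D, had 99.6 ± 34.9 TPM compared to 8.41 ± 0.69 TPM. Both were called higher in rEEOs, with log2 fold changes of 2.79 and 3.78. All 9 further PDGF pathway genes, listed like the partners below with earlier results known, were tested. There were 2 calls higher and 5 lower in rEEOs, beside 16.3% and 13.3% of all genes tested. The 5 were Pdgfc, Pdgfd, Pdgfra, Pdgfrl and the proprotein convertase gene Pcsk5, which had 11.7 ± 0.90 TPM in rBMSCs and 2.16 ± 1.17 TPM in rEEOs. Pdgfrl, a receptor-like gene, had 281.5 ± 3.26 TPM in rBMSCs and 1, 0 and 0 counts in rEEOs. Furin, a convertase that processes PDGF-A and PDGF-B precursors, was higher in rEEOs on the adjusted p alone, at 169.3 ± 81.5 TPM and 81.0 ± 2.14 TPM in rBMSCs. Pcsk7, a further convertase, did not pass, at 12.7 ± 5.48 TPM in rEEOs and 19.2 ± 1.02 TPM in rBMSCs (log2 fold change -0.41, edgeR adjusted p = 0.103).

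**Figure D3:**
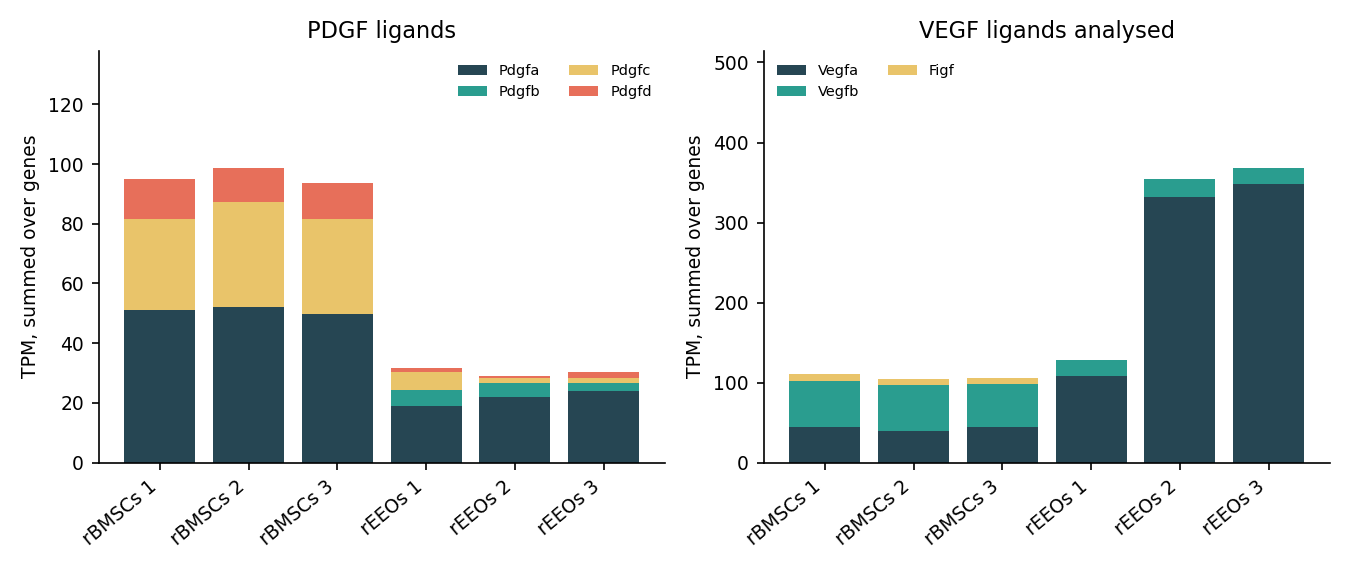
TPM of the PDGF ligand genes (left) and of the VEGF ligand genes analysed (right), stacked in each library. The PDGF sum is 93.8 to 98.5 TPM in rBMSCs and 29.1 to 31.8 TPM in rEEOs. Vegfb and Vegfa change places as the largest part of the sum of Vegfa, Vegfb and Figf.

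The receptor for the Pdgfb product was read on the other side. Pdgfrb had 23739, 23406 and 22325 counts in rBMSCs, or 427.0, 398.9 and 419.9 TPM, above between 97.9% and 98.0% of the genes analysed. It had no count in any rEEOs library, so it was at least 6626-fold lower there, computed against 3 counts in the library where these weigh most (edgeR adjusted p = 1.47e-05). Pdgfra, the other receptor, had 59.3 ± 4.11 TPM in rBMSCs and 3, 0 and 3 counts in rEEOs, and Pdgfrb made up between 87.3% and 88.0% of the receptor sum in rBMSCs. Thus rEEOs transcribed Pdgfa and Pdgfb with at most 3 counts of either receptor gene, and rBMSCs transcribed both receptor genes along with Pdgfa, Pdgfc and Pdgfd. Pdgfrb is also used to mark pericytes, and all 8 pericyte and smooth muscle markers analysed were called lower in rEEOs. In rBMSCs they ranged from Acta2, at 5584 TPM or more in every library, down to Kcnj8, at 2.43 to 3.24 TPM, and Abcc9, at 0.55 to 0.73 TPM. In bulk samples, fewer cells of a type and less RNA per cell cannot be told apart.

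Angpt1 was the angiopoietin of both cell types and was lower in rEEOs. It had 30.8, 27.1 and 29.6 TPM in rBMSCs and 18.09, 7.28 and 3.67 TPM in rEEOs. The groups do not overlap, although replicate 1 of rEEOs lay much nearer to rBMSCs than replicate 3 did. Its log2 fold change was -1.27 (SE 0.32, edgeR adjusted p = 0.0137), below the threshold of 2 in size. Scaling by library size alone gave -0.88 (edgeR adjusted p = 0.0563), which does not pass. In rEEOs the pericyte and smooth muscle marker sum was 8.96, 7.22 and 3.43 TPM, in the same order as Angpt1. Notch3, at 7.18, 4.58 and 2.38 TPM, was its largest part, and Des, Abcc9 and Kcnj8 were at 0. Acta2, at 1.08, 0.79 and 0.65 TPM, ran in that order too, but Mcam, at 0.69, 1.78 and 0.33 TPM, did not. Cspg4 had 1, 0 and 0 counts and Cnn1 had 0, 1 and 1. The mesenchymal marker sum was 172.0, 300.3 and 236.6 TPM, of which Vim was 171.1, 297.5 and 227.4 TPM. Col1a1, at 0.03, 0.07 and 0.16 TPM from 2, 5 and 11 counts, and Postn, at 0.31, 2.02 and 7.82 TPM, rose from replicate 1 to replicate 3. So did Col3a1, with 0, 1 and 3 counts. Eng, at 0.35, 0.71 and 0.59 TPM, and Nt5e, at 0.12, 0.03 and 0.44 TPM, did not. Neither did Pdgfra, with 3, 0 and 3 counts, nor Col1a2, with 1, 0 and 0 counts. Pdgfc and Nrp2 were also highest in rEEOs replicate 1, at 5.95 and 24.7 TPM. So were the epithelial markers Cdh1 and Krt7, at 337.7 and 794.8 TPM, while the epithelial marker Cldn4 was lowest there, at 108.1 TPM. The part of these cell types in the result was not tested.

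Angpt2, which counters ANGPT1 at the receptor, was near the detection limit. It had 6, 5 and 1 counts in rBMSCs and 18, 0 and 6 counts in rEEOs, so the groups overlap. When the count minimum was lowered to 1, its log2 fold change was 0.85 (SE 1.14, edgeR adjusted p = 0.542), and no difference was detectable at this depth. Angpt1 made up at least 93.9% of the sum of Angpt1, Angpt2 and Angpt4 in every library. Of 6 partners of the angiopoietins, 3 were tested and all 3 were called lower in rEEOs, beside 13.3% of all genes tested. They were Tek and the integrin genes Itga5, with 106.4 ± 2.86 TPM in rBMSCs and 12.4 ± 2.37 TPM in rEEOs, and Itgb1, with 1318 ± 89.3 and 215.4 ± 93.2 TPM. Tek, the gene of the receptor TIE2, had 23, 14 and 18 counts in rBMSCs and 1, 0 and 1 in rEEOs. Tek, Tie1 and Ptprb were each at or below 0.50 TPM in all libraries, and Angpt4, a further ligand, had at most 4 counts.

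Vegfb, whose product binds VEGFR1, was lower in all rEEOs libraries. It had 57.2, 58.3 and 53.3 TPM in rBMSCs and 20.7, 22.0 and 19.0 TPM in rEEOs. No rEEOs library came near the rBMSCs libraries. The log2 fold change was -1.16 (SE 0.20, edgeR adjusted p = 0.00271), and it passed in every alternative run, with a log2 fold change between -1.45 and -0.79. Because it stayed under the fold threshold, Vegfb was not among the genes called.

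Figf (Vegfd), whose product acts on lymphatic and blood vessel receptors after processing, was a product of rBMSCs. It had 198, 169 and 169 counts, or 9.45, 6.75 and 8.00 TPM, in rBMSCs, and 0, 0 and 1 counts in rEEOs. The pooled scaled count was 537.2 times higher in rBMSCs, with a 95% exact interval of 96.0 to 21258 for counting error only (edgeR adjusted p = 5.55e-05). It rests on the 1 count of rEEOs replicate 3, without which the fitted log2 fold change moved from -8.60 to -10.51 (edgeR adjusted p = 0.000419) and again depends on the prior count. Vegfa, the main angiogenic member of the family, ran the other way, with 42.9 ± 3.09 TPM in rBMSCs and 263 ± 134 TPM in rEEOs. Vegfb held between 50.3% and 55.9% of the sum of Vegfa, Vegfb and Figf in rBMSCs but between 5.17% and 16.1% in rEEOs. Of 8 VEGF partners listed, 4 were analysed here and all 4 were tested. The ligand genes Vegfc and Pgf and the receptor genes Kdr and Flt4 were not among the genes analysed. Vegfa and Flt1 were called higher in rEEOs, and the co-receptor genes Nrp1 and Nrp2 lower, beside 16.3% and 13.3% of all genes tested. Flt1, the gene of VEGFR1, reached 2.53, 1.31 and 0.88 TPM in rEEOs and at most 0.25 TPM in rBMSCs. Nrp1 had 53.8 ± 7.57 TPM in rBMSCs and 0.31 ± 0.11 TPM in rEEOs, a log2 fold change of -7.06 (SE 0.18, edgeR adjusted p = 4.59e-06). For Nrp2 the levels were 108.9 ± 12.7 and 10.8 ± 12.1 TPM.

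**Figure D4:**
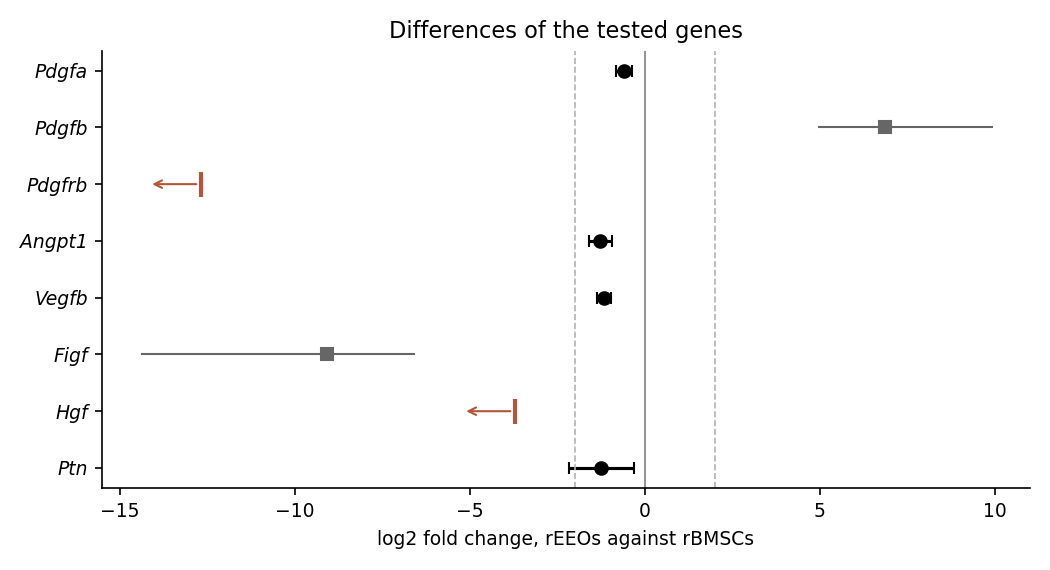
Difference between rEEOs and rBMSCs for the 8 genes tested, on a log2 scale. Circles are log2 fold changes from edgeR with their standard errors, squares are ratios of pooled scaled counts with 95% exact intervals for counting error, and a tick with an arrow is a lower bound against 3 counts. Dashed lines mark a log2 fold change of 2 in size. Pdgfb alone lies to the right.

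Hgf was read in rBMSCs only among these libraries. It had 53, 36 and 49 counts in rBMSCs, or 2.06, 1.12 and 1.80 TPM, and 0 counts in all 3 rEEOs libraries. At 3 counts it was at least 13.2-fold lower in rEEOs (edgeR adjusted p = 0.000583). On log2(TPM + 1), where low genes are compressed, its difference was -1.39 and did not reach the fold threshold.

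Hgfac, Hpn and St14, genes of proteases that activate HGF, were read almost wholly in rEEOs. Other proteases were not considered as activators of HGF here. Hgfac, the HGF activator, had 160.9, 121.1 and 134.7 TPM in rEEOs, while rBMSCs had no count, so it was at least 970-fold higher in rEEOs. For Hpn (hepsin), also without a count in rBMSCs, the level in rEEOs was 80.8 ± 3.41 TPM, at least 471-fold higher. St14 (matriptase) had 183.8 ± 66.8 TPM in rEEOs, against 0.29 ± 0.03 TPM, and a log2 fold change of 9.49 (SE 0.27, edgeR adjusted p = 4.59e-06). The inhibitors of these proteases followed the same split, and Spint1 and Spint2 reached 286.5 ± 17.4 and 1624 ± 213 TPM in rEEOs, against maxima of 0.05 and 7.22 TPM in rBMSCs. Met, the HGF receptor gene, had 8.23, 6.33 and 7.88 TPM in rBMSCs and 22.98, 4.62 and 7.19 TPM in rEEOs. The groups overlap for Met on both scales, with a log2 fold change of 0.79 (SE 0.41, edgeR adjusted p = 0.133), and replicate 1 is the one rEEOs library above rBMSCs by TPM. In scaled counts replicates 1 and 3, at 99.0 and 46.6 CPM, both lay above the 30.2 to 36.7 CPM of rBMSCs. Of the 10 HGF partners, 9 were tested. Higher levels in rEEOs were called for 6 of them and lower levels for none, beside 16.3% and 13.3% of all genes tested. Gab1, the adaptor of MET, and Cd44 passed on the adjusted p alone, with log2 fold changes of -1.36 and -0.86. Gab1 had 16.4 ± 1.07 TPM in rBMSCs and 5.53 ± 2.01 TPM in rEEOs, and Cd44 had 140.6 ± 4.37 and 61.5 ± 32.9 TPM. So in these libraries the ligand gene Hgf was read in rBMSCs, the activator genes Hgfac, Hpn and St14 almost wholly in rEEOs, and its receptor gene in both.

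**Figure D5:**
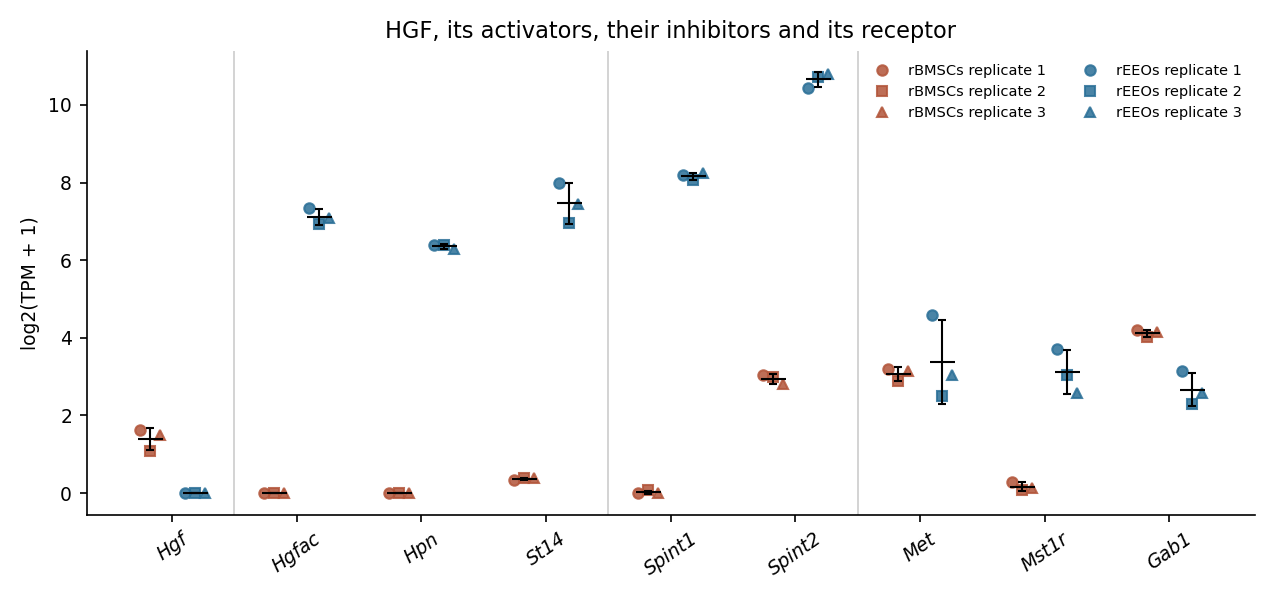
Level of Hgf, of the activator genes Hgfac, Hpn and St14, of their inhibitors Spint1 and Spint2, and of Met, Mst1r and Gab1 in each library as log2(TPM + 1), with circles, squares and triangles for replicates 1, 2 and 3, a bar for the mean and whiskers for the SD (n = 3). Hgf is at 0 in rEEOs, the activators Hgfac and Hpn are at 0 in rBMSCs, and Met overlaps between the cell types.

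Ptn was the gene of this group with the widest spread in rEEOs. It had 13.4, 12.2 and 10.8 TPM in rBMSCs and 11.12, 0.16 and 3.36 TPM in rEEOs, from 142, 2 and 43 counts. Replicate 1 of rEEOs lay within the range of rBMSCs by TPM, and replicate 2 was close to the detection limit. In scaled counts the groups were barely apart, with 8.57 CPM in rEEOs replicate 1 and 8.69 CPM in the lowest rBMSCs library. Replicate 1 was the highest rEEOs library for both Angpt1 and Ptn, but neither marker sum given for Angpt1 ran in the order of Ptn. The mesenchymal marker sum, of which Vim took most, ran in the reverse order of Ptn. Replicate 2, the lowest for Ptn, had 7.22 TPM of pericyte and smooth muscle markers and 300.3 TPM of mesenchymal markers. The part of these cell types in the result was not tested. The SD of log2(CPM + 1) over the rEEOs libraries was 1.53, and 2.42% of 785 tested genes of similar level in rEEOs spread as widely. The log2 fold change was -1.24 (SE 0.93, edgeR adjusted p = 0.278), which does not pass. Without rEEOs replicate 1 it was -2.35 (edgeR adjusted p = 0.0333) and passed both thresholds, and without rEEOs replicate 2 it was -0.66 (edgeR adjusted p = 0.209).

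Mdk was read at a low level in rEEOs. It had 5, 3 and 10 counts in rEEOs, or 1.09, 0.62 and 1.58 TPM, and 1, 0 and 0 counts in rBMSCs. The pooled scaled count was 18.0 times higher in rEEOs, with a 95% exact interval of 2.84 to 748 for counting error only. It did not meet the count minimum. When the minimum was lowered to 1 count in any library, its log2 fold change was 3.76 (SE 1.10, edgeR adjusted p = 0.0266), and 15.8% of genes were called higher under that filter. The DESeq2 Wald test, which called 16.8% of genes higher, gave 4.09 (adjusted p = 0.0352). Ptprz1, the shared receptor gene, was listed at 30.8, 14.9 and 11.1 TPM in rEEOs. It had no count in rBMSCs and was at least 395-fold higher in rEEOs. Lrp1, a receptor of midkine, had 193.6 ± 28.8 TPM in rBMSCs and 2.65 ± 1.03 TPM in rEEOs, a log2 fold change of -5.99 (SE 0.26, edgeR adjusted p = 1.24e-05). Of 10 partners of Ptn and Mdk listed, 8 were analysed here and 6 were tested. Among these, 1 was called higher (Ptprz1) and 2 lower (Lrp1 and Ptprs), beside 16.3% and 13.3% of all genes tested. Sdc3 and Sdc4, heparan sulfate proteoglycans that bind both factors, passed on the adjusted p alone, with log2 fold changes of 1.76 and 1.95. Sdc4 had 222.4 ± 80.4 TPM in rEEOs and 68.7 ± 0.80 TPM in rBMSCs. Ptprs, a receptor phosphatase gene, had 5.77 ± 1.47 TPM in rEEOs and 37.0 ± 2.52 TPM in rBMSCs. Ncl (nucleolin), which binds both factors at the cell surface, had 404 ± 138 and 417.5 ± 16.8 TPM and did not pass (log2 fold change 0.16, edgeR adjusted p = 0.391).

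By source, rBMSCs held the higher level of Pdgfrb, Angpt1, Vegfb, Figf and Hgf by the adjusted p, and rEEOs that of Pdgfb. For Pdgfa all rBMSCs libraries were higher, but it did not pass the main edgeR test. It passed in some alternatives, among them the DESeq2 Wald test (log2 fold change -0.60, adjusted p = 0.0340). Ptn did not pass and its groups overlap by TPM, and for Mdk all rEEOs libraries were higher under the filter that tests it. Angpt2 could not be assigned. Across the 5 lists of partners, 31 of 37 genes analysed were tested, with 11 calls of a higher and 12 of a lower level in rEEOs, beside 16.3% and 13.3% of all genes tested. The lists were chosen with earlier results known, so nothing is read from these counts. Their median log2 fold change was 0.16, that of the 8 genes tested from the main group was -1.25, and that of all genes tested was 0.08.

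The genes whose profile of log2(TPM + 1) over the 6 libraries lay nearest were taken for each of the genes reaching a mean of 10 TPM in a cell type, by Euclidean distance among 13727 other genes. Pdgfrb lay nearest to P4ha3, a collagen prolyl hydroxylase subunit (distance 0.15), Itga11, a collagen-binding integrin subunit (0.30), and Col11a1 (0.32). P4ha3 had 395.8 ± 5.37 TPM (SD, n = 3) in rBMSCs and was listed at 0 in all rEEOs libraries. Vegfb lay nearest to Adprh, Gyg1 and Zfp637, at distances from 0.32 to 0.33, and Pdgfa to Herpud2 (0.29), Zfp637 (0.34) and Ppp1r12c (0.36). Angpt1 lay nearest to Lrrc8a (0.46), Klhl5 (0.54) and Pcnx1 (0.59). For Ptn the nearest genes, LOC689800, Cdca5 and Klf13, were at distances of 0.77 to 0.88. Over 6 libraries a near profile says mainly that the levels in the cell types are alike, and no shared function is read from it.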

How the data were processed

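RNA from 3 rEEOs and 3 rBMSCs samples was sequenced by the authors as single-end reads. They trimmed reads with Trim Galore, aligned them with Bowtie2 2.2.5 to the rat genome (Rnor_6.0 in the submitters' processing notes) and estimated expression with RSEM. Whether the counting used strand is not given in the sources used here. The deposited table holds expected counts, TPM and FPKM per gene and library, together with the authors' means, which were not used. FPKM was deposited as well and was not used. The 13728 genes held carry between 81.3% and 82.7% of each library's TPM, and other genes were not analysed here. The last row is incomplete in its mean columns only.

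Expected counts were rounded, and the 10607 genes that reached 10 counts in 3 or more libraries entered edgeR 4.0.16 in R 4.3.3 (TMM, glmQLFit and glmQLFTest), with cell type as the only term. The standard error is the log2 fold change divided by the square root of F. Where a cell type had no count, the fold is a lower bound against 3 counts, which are between 0.181 and 0.262 CPM. Where it had up to 3 counts per library, a ratio of pooled scaled counts with a 95% Clopper-Pearson interval is given. Bounds and intervals cover counting error only. On simulated data the test was checked to recover genes of known change. Only a small part of the genes was changed there, in both directions, so the check says nothing about the scaling of these data.

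The genes, partner lists and marker lists were chosen with earlier results of these data known. Every partner analysed counts in its list, and values are given for partners with a mean of at least 10 TPM in a cell type, receptors and related ligands, together with the 3 nearest profiles of each gene of that level. Alternatives were DESeq2 1.42.0, other scalings and filters, limma 3.58.1 on log2(TPM + 1) or log2(TPM + 0.1), a replicate block, each library left out, a fold threshold of 1 on the log2 scale and, chosen after seeing the data, a length offset. Replicate numbers did not pair the samples. Promoter windows are from RefSeq (GRCr8). Python 3.11.15, scipy 1.17.1 and pandas 2.3.3 were used.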

Additional observations from a re-analysis of the deposited data

How the results depend on the processing

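No direction changed under any alternative run for the 8 genes tested. The number of genes called higher was 2 with the DESeq2 Wald test and 2 when the minimum was 1 count in any library, since Mdk then entered, and the number called lower was 5 at a log2 fold threshold of 1. Pdgfa, which does not pass in the main test, passed with the DESeq2 Wald test (log2 fold change -0.60), with limma on log2(TPM + 1) (-1.20) and log2(TPM + 0.1) (-1.24), with the length offset (-0.94) and without rEEOs replicate 1 (-0.36). Its log2 fold change lay between -0.72 and -0.36 over the fits that leave out 1 library, and at -0.22 it was smallest in size with library size only (edgeR adjusted p = 0.366). Angpt1 did not pass with library size only (-0.88, edgeR adjusted p = 0.0563). That scaling moved the median of all genes by 0.38, and relative to this median Angpt1 was at -1.33 compared to -1.34 with TMM. Ptn lay between -2.35 and -0.66 over the fits that leave out 1 library and passed without rEEOs replicate 1. Leaving out a library gave 1 gene higher and 3 to 4 lower. The partner genes called ranged from 10 to 16 higher and 11 to 13 lower. With the replicate block, Pdgfa had a log2 fold change of -0.63, Ptn one of -1.84 and Angpt1 one of -1.36, and no call of the 8 genes changed. Over all genes the block gave 1710 calls higher and 1521 lower, compared to 1733 and 1412. Samples with the same number had correlated deviations of 0.17, 0.19 and -0.17, so the numbers were not taken as a pairing, and rBMSCs replicate 2 correlated best with rEEOs replicate 3 (0.26). Hgf could not be tested at a minimum of 50 counts, and the depth leaves Angpt2 undecided.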

Other observations

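Some partner genes were read too seldom to be tested. For Ltk, a receptor tyrosine kinase related to ALK, there were 7, 55 and 37 counts in rEEOs (replicates 1, 2 and 3) and 0, 1 and 0 counts in rBMSCs. Gpc2, a glypican that binds midkine, had 9, 77 and 45 counts in rEEOs and 4, 8 and 6 counts in rBMSCs. Vegfa, at 108.0, 332.5 and 348.6 TPM, was likewise lowest in rEEOs replicate 1, the library in which Angpt1, Ptn, Met and Ptprz1 were highest by TPM. Mst1r, the receptor gene of an HGF-like ligand, had 12.2, 7.26 and 4.99 TPM in rEEOs and at most 0.22 TPM in rBMSCs (log2 fold change 6.24, SE 0.51, edgeR adjusted p = 0.000108), while its ligand gene Mst1 had 4, 11 and 4 counts in rEEOs and none in rBMSCs.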
